A study of Homo sapiens with 6 samples.

Results

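The 50 genes described here are transcriptional targets of the tumour suppressor p53 and genes of the cell death machinery: death receptors, the BCL2 family, caspases and their regulators. They were chosen by gene symbol from the 61860 rows of a count table, and each symbol was found. Of the 50, 49 passed the filter on low counts and were tested. The exception was HRK, a BH3-only activator of apoptosis, which had 3, 2 and 0 counts in the METTL3 knockdown libraries and 4, 2 and 0 counts in the control libraries. Expression was measured in 786-O cells, a human renal carcinoma line of the clear cell type, which stably expressed either a short hairpin RNA (shRNA) against METTL3 or a control shRNA. METTL3 is the methyltransferase that places N6-methyladenosine (m6A) on mRNA. There were 3 libraries per group, called A, B and C after the letters of the deposited columns, made from total RNA depleted of ribosomal RNA. The columns of the knockdown group carry only the number of a construct and were assigned by elimination. Each group is 1 stable line with 1 shRNA as far as the labels say. They do not state whether its 3 libraries were grown separately, and the p-values below then cover only the spread among these libraries, which may be technical.

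p53 is a transcription factor that is held at a low level by the ubiquitin ligase MDM2 and its partner MDM4 and accumulates after DNA damage or other stress. Its targets stop the cell cycle, repair DNA or bring on apoptosis. Apoptosis starts either at death receptors of the cell surface, which activate CASP8 through the adaptor FADD, or at mitochondria, where BH3-only proteins free BAX and BAK1 from BCL2-type inhibitors and released cytochrome c builds the apoptosome of APAF1 and CASP9. Kidney carcinoma lines are known for differing sensitivity to ligands of the death receptors.

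Total counts ran from 100534896 to 101473388 in the knockdown libraries and from 102420127 to 103624456 in the control libraries. METTL3 was at 10.8 ± 0.87 CPM in the knockdown libraries and at 37.6 ± 0.43 CPM in the control libraries (SD, n = 3 each). CPM are counts scaled to the library total after trimmed-mean normalisation. The renal markers PAX8, PAX2, KRT8, KRT18, VIM and CA12 were expressed in all 6 libraries, whereas the epithelial markers CDH1 and EPCAM stayed at or below 0.11 and 0.66 CPM in each library. VIM (log2 fold change 1.02), CA12 (1.41) and PAX8 (0.32) were called higher in knockdown cells. The renal marker CDH6 was weak, at a mean of 1.65 CPM in knockdown cells and 1.41 CPM in control cells, and was not called. Among the leukocyte markers, CD3E had 0 counts, and PTPRC, LYZ and CD14 were at or below 0.041, 0.080 and 0.28 CPM in each library. CD68 was called higher, with 108.6, 114.4 and 87.6 CPM in the knockdown libraries and 58.3, 53.2 and 49.0 CPM in the control libraries (log2 fold change 0.95), and CD14 was called lower (log2 fold change −1.41, edgeR adjusted p = 0.0232). The 4 endothelial markers summed to 0.09 to 0.12 CPM in the knockdown libraries and to 0.09 to 0.14 CPM in the control libraries, and the 4 fibroblast markers to 2.16 to 2.35 CPM in the knockdown libraries and to 3.85 to 4.57 CPM in the control libraries. Of the fibroblast markers, PDGFRB (log2 fold change −1.21, edgeR adjusted p = 0.000387) and LUM (−1.57, edgeR adjusted p = 0.00509) were called lower. COL1A1 did not pass (−0.45), and DCN was too low to be tested. Mitochondrially encoded transcripts took 8.11% ± 0.37 of the counts in the knockdown libraries and 4.46% ± 0.27 in the control libraries (SD, n = 3 each). Without them the same numbers of member genes were called, 8 higher and 9 lower. The part of the marker levels in the results below was not tested. In bulk RNA, fewer cells that express a gene and less RNA of it per cell cannot be told apart.

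Among the 49 tested members, 8 were higher and 9 lower in METTL3 knockdown cells, by the quasi-likelihood test of edgeR with p adjusted over all genes by the Benjamini-Hochberg method and a threshold of 0.05. These 17 genes made up 34.7% of those tested, against 33.5% of all 18740 genes, of which 16.5% were higher and 16.9% lower. The share was thus near the background, and it is no result about these genes as a whole. The median log2 fold change of the 49 genes was −0.04, against −0.00 for all genes, and the median absolute change was 0.17, against 0.25. Only CASP14, an epidermal caspase, was called with at least a 2-fold change, as were 4.48% of all genes. For 25 of the 49 the groups did not overlap (11 above and 14 below the controls), which is 51.0% against 47.4% of all genes. When libraries were scaled by their totals alone, which moved the median of all genes to −0.11, 6 members were called higher and 13 lower. Of all genes, 1985 were then higher and 4727 lower, against 3099 and 3171. Leaving out knockdown library A, knockdown library B or control library C left 4 members called lower in each case. Over all genes, 2506, 1959 and 2304 were called lower in these fits, against 3171. Lower calls were thus lost beyond the members too, but the members, going from 9 to 4, lost a larger share. That difference in share was not tested.

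Calls were spread unevenly over the list as divided here by role. Of the 18 p53 targets of arrest, feedback, DNA repair, mitochondria and nucleolus, 5 were higher and 6 lower (61.1%, median log2 fold change −0.15). Of the 31 tested receptors, BCL2 family members, caspases and their regulators, 3 were higher and 3 lower (19.4%, median 0.01). The share over all genes was 33.5%. Among the calls of the 18 targets, only those of PHLDA3 and XPC passed in every alternative way of processing. In the second set those of TNFRSF10D, FADD, BCL2L1 and CASP14 passed in every alternative that tested them. The second set also holds p53 targets, BBC3 and PMAIP1 among them, so the contrast depends on how the list was divided. This difference was not tested.

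**Figure D1:**
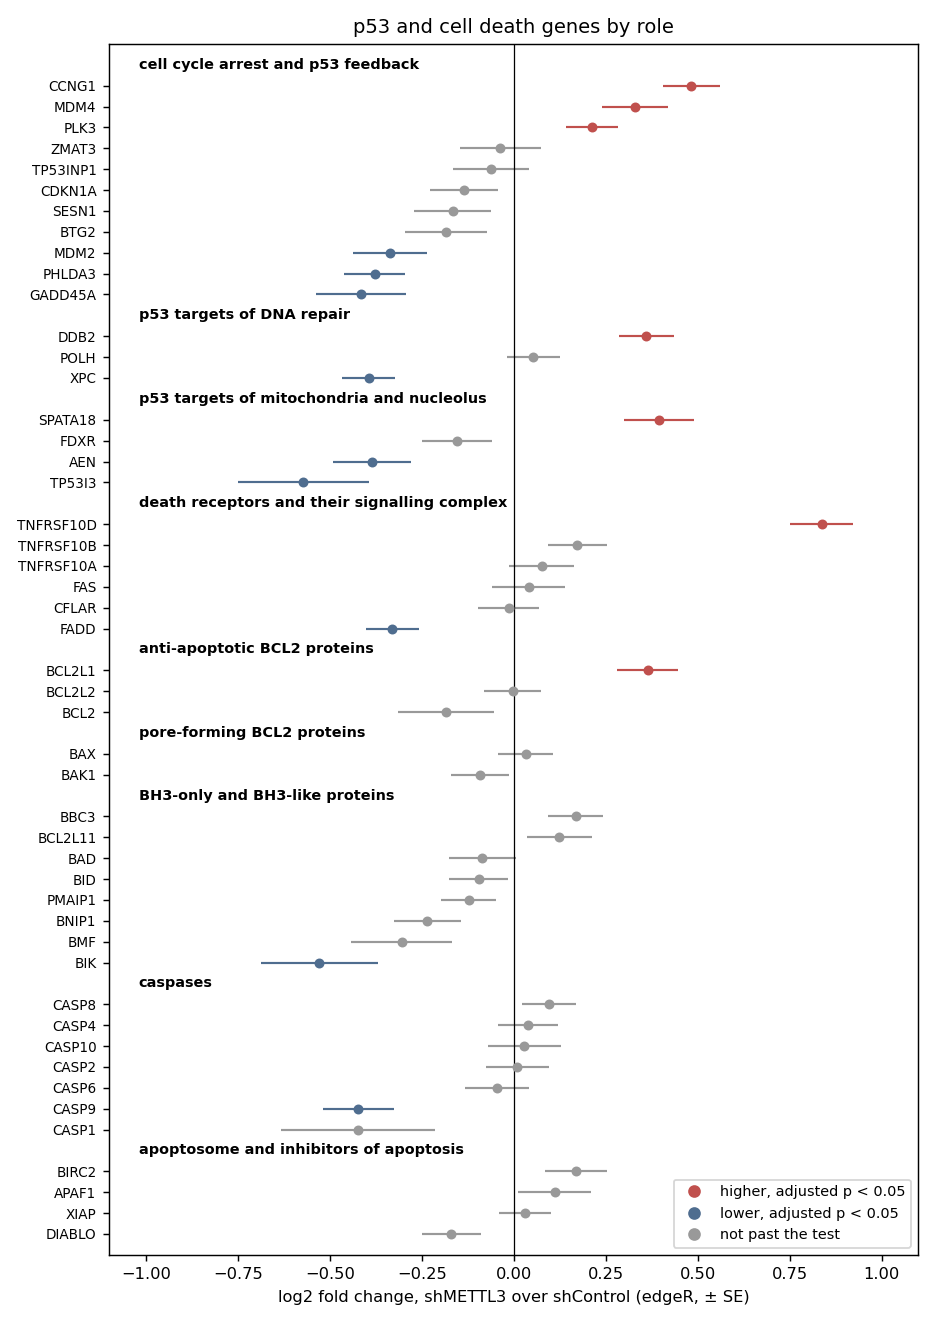
Log2 fold change (METTL3 knockdown over control, edgeR, with its standard error) of the tested genes on the horizontal axis, grouped by role, with red (higher) and blue (lower) points where the adjusted p was under 0.05 and grey points elsewhere. The changes lie on both sides of 0 in most roles, from −0.57 for TP53I3 to 0.84 for TNFRSF10D; CASP14 is off this scale, since its control libraries held 1 count in all.

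Among the genes of cell cycle arrest and p53 feedback, 3 of 11 rose and 3 fell in METTL3 knockdown cells. CDKN1A (p21), the inhibitor of cyclin-dependent kinases and the best known p53 target, was by length-scaled level (FPKM, which divide fragments by transcript length and by library total, from the authors' second table) the most abundant of the 50 genes in the control libraries. CDKN1A stood at 1019, 983 and 1143 CPM in knockdown libraries A, B and C, and at 1120, 1118 and 1216 CPM in control libraries A, B and C. The groups overlapped, since knockdown library C lay above 2 of the control libraries. The log2 fold change of CDKN1A was −0.14 (SE 0.09, edgeR adjusted p = 0.275), which did not pass.

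GADD45A, which binds PCNA and takes part in growth arrest and repair, was next to CDKN1A in level, at 423 FPKM in knockdown cells and 611 FPKM in control cells. It had 462, 385 and 557 CPM in the knockdown libraries and 605, 582 and 687 CPM in the control libraries. Every knockdown library lay below every control library, although knockdown library C came near the lowest control. GADD45A fell by 0.42 on the log2 scale (SE 0.12, edgeR adjusted p = 0.0187). The call was lost without knockdown library A (edgeR adjusted p = 0.0540), knockdown library B (0.0918) or control library C (0.0658), whereas without knockdown library C the change was −0.56.

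CCNG1 encodes cyclin G1, which brings a phosphatase to MDM2. It had 72.3, 70.6 and 74.5 CPM in the knockdown libraries, against 49.7, 56.4 and 49.5 CPM in the control libraries. The groups were well apart, and the log2 fold change of CCNG1 was 0.48 (SE 0.08, edgeR adjusted p = 0.000609), a rise of 39.7% that was past the threshold in 16 of the 17 alternatives. MDM2, itself a p53 target that closes the feedback loop, went the other way. MDM2 had 37.7, 39.3 and 49.7 CPM in the knockdown libraries, and 49.6, 55.0 and 55.4 CPM in the control libraries. Its groups touched, knockdown library C lying just above control library A, and it fell by 0.34 on the log2 scale (SE 0.10, edgeR adjusted p = 0.0214). The MDM2 call was lost without knockdown library A (edgeR adjusted p = 0.0845), knockdown library B (0.0937), and also without control library B (0.0753) or C (0.0605).

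MDM4, the partner of MDM2 that covers the activation domain of p53, rose (log2 fold change 0.33), with a call that was lost without control library A (edgeR adjusted p = 0.0627), with scaling by library totals and in the 3 fits on FPKM. PLK3, a stress-activated kinase, rose by the smallest amount among the called genes (0.21), and its call was lost in 11 of the 17 alternatives. These were the fits without any 1 of the 6 libraries (edgeR adjusted p from 0.0617 to 0.112), without a filter on low counts (0.0758) or with scaling by library totals (log2 fold change 0.10, edgeR adjusted p = 0.341), and the 3 fits on FPKM (log2 fold change 0.05 in each). PHLDA3, a competitor of AKT for membrane lipids, had 174, 153 and 172 CPM in the knockdown libraries, and 229, 216 and 203 CPM in the control libraries. PHLDA3 fell by 0.38 on the log2 scale and passed in each of the 17 alternatives run. The log2 fold changes of the remaining 5 genes did not pass and lay between −0.18 for BTG2 and −0.04 for ZMAT3, with SESN1 and TP53INP1 between them, besides CDKN1A.

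Of the 3 repair genes, DDB2 rose and XPC fell, and POLH, the polymerase that copies past ultraviolet lesions, did not pass (log2 fold change 0.05). DDB2 and XPC are both damage sensors of nucleotide excision repair, and mutations in either cause forms of xeroderma pigmentosum. Their library values, like those of PHLDA3, TNFRSF10B, FADD and CFLAR, were chosen for printing after they had been seen. DDB2 had 142, 135 and 145 CPM in the knockdown libraries, and 111, 114 and 103 CPM in the control libraries. XPC had 64.9, 66.2 and 66.6 CPM in the knockdown libraries, and 87.1, 81.8 and 90.9 CPM in the control libraries. Neither gene's groups overlapped. DDB2 rose by 0.36 (SE 0.08, edgeR adjusted p = 0.00299) and XPC fell by 0.39 (SE 0.07, edgeR adjusted p = 0.00143) on the log2 scale. The DDB2 call was lost in the 3 fits on FPKM, while XPC passed in all 17 alternatives. XPC shares exon bases with LSM3 on the opposite strand, and since no source used here states a strand setting for counting, reads of the pair cannot be separated with certainty.

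DDB2 was also the only one of 40 members with a promoter whose sequence, in the RefSeq table for GRCh38.p14 (250 bases before to 50 after the start), held a pair of p53 half-sites at most 13 bases apart, the arrangement of a full p53 response element. The half-site is a motif of 10 bases, searched on both strands. A pair occurred in 10 of 35116 promoters (0.0285%), and at least 1 half-site in 2329 (6.63%). The table held 71 promoters of 40 members, of which 8 (11.3%) had at least 1 half-site. A match describes the letters of this window and is not a binding site shown by these data, and members without a match are only without one here. The DDB2 promoter at chr11:47214724-47215023, plus strand, is shown because it carries the pair, in capitals, beginning at base 6 when the first transcribed base is counted as 1.
DDB2: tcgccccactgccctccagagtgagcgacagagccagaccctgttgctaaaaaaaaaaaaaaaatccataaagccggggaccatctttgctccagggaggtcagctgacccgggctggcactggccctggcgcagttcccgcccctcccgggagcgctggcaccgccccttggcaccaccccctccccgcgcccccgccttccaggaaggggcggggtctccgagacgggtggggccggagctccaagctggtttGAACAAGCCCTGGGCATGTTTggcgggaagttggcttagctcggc

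The other 7 members with a half-site were AEN, BAK1, CASP8, CASP9, FAS, FDXR and SESN1. Of these 7, AEN and CASP9 fell and the other 5 did not pass. The windows below show the half-site of the 4 that differ most in role, in capitals, with 10 bases on each side, 5′ to 3′ on the strand of the gene. They were taken from the promoters at chr15:88621090-88621389 (AEN, plus), chr1:15524741-15525040 (CASP9, minus), chr10:88991181-88991480 (FAS, plus) and chr6:109008939-109009238 (SESN1, minus) of the same build.
AEN: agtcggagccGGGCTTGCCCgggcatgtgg
CASP9: cggtggcacgAGGCTAGCCCttgggggcgg
FAS: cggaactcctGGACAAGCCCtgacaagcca
SESN1: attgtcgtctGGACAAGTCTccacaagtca

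Of the 4 p53 targets of mitochondria and nucleolus, SPATA18 rose and AEN and TP53I3 fell. SPATA18 (Mieap), which takes part in the control of mitochondrial quality, was the only one higher (log2 fold change 0.39), and its call was lost in the 3 fits on FPKM. TP53I3 (PIG3), a quinone oxidoreductase, was weakly expressed, at 1.58, 1.31 and 2.15 CPM in the knockdown libraries and 2.44, 2.36 and 2.68 CPM in the control libraries. Its groups did not overlap, and TP53I3 fell by 0.57 on the log2 scale (SE 0.18, edgeR adjusted p = 0.0253). The TP53I3 call was lost without knockdown library A (edgeR adjusted p = 0.0831), knockdown library B (0.110), and also without control library B (0.0518) or C (0.0623). The exons of TP53I3 overlap those of FAM228B on the opposite strand. FAM228B had a mean of 1249 counts per library, against 215 for TP53I3, so reads of this pair cannot be separated with certainty either. AEN, an exonuclease of the nucleolus, fell by 0.38 on the log2 scale, and its call was lost without knockdown library A (edgeR adjusted p = 0.0561), knockdown library B (0.0735) or control library C (0.0539). FDXR, the mitochondrial ferredoxin reductase, had a log2 fold change of −0.16 and did not pass.

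The 18 p53 targets were often highest in the same library of their group. In the knockdown group 14 of the 18 (77.8%) were highest in library C, against 35.4% of all genes tested. In the control group 12 of the 18 (66.7%) were highest in library C, against 35.7% of all genes. Among all 49 tested members, which include these 18, library C was the highest for 30 (61.2%) in the knockdown group. In the control group it was the highest for 25 of the 49 (51%). The pattern was therefore not examined as one particular to the 18. As deviations from the mean of their own group on the log2 scale, the 18 had a median of 0.09 in knockdown library C, where 16 lay above the mean, and of −0.07 in knockdown library B, where 2 did. In control library C the median deviation was 0.07, with 12 of 18 above the mean. The letters of the 2 groups are not tied to shared cultures or days by any label. These values stand beside the calls listed above that depended on 1 library; their part in those calls was not tested.

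**Figure D2:**
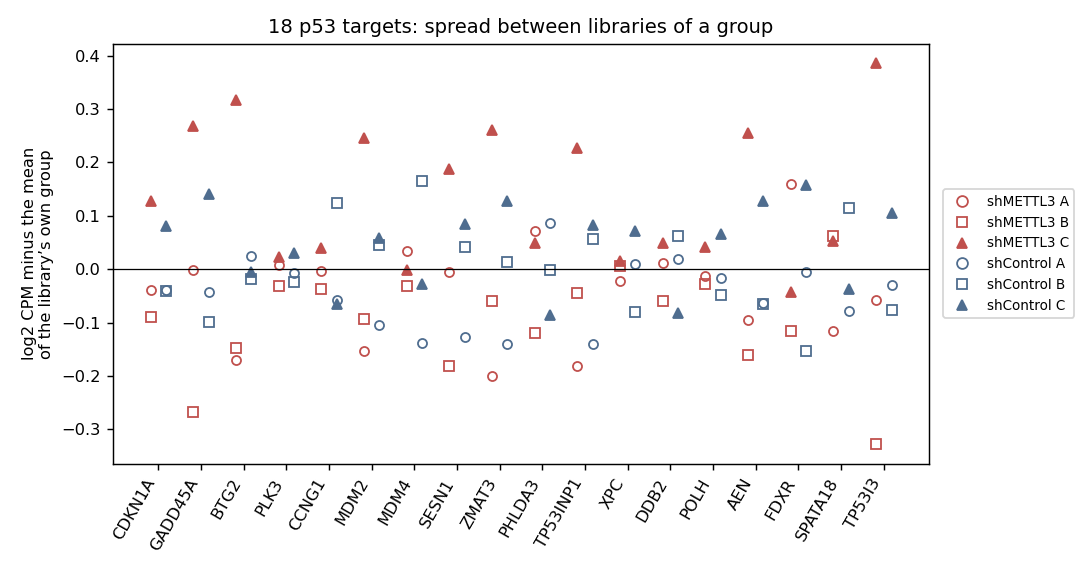
Deviation of each of the 18 p53 targets from the mean of its own group (log2 CPM, vertical axis) in the 3 knockdown and the 3 control libraries. The points of knockdown library C lie above 0 for 16 of the 18 genes and those of knockdown library B for 2.

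Death receptors and their signalling complex held 1 rise and 1 fall among 6 genes. TNFRSF10D (DcR2) is a decoy receptor for the ligand TRAIL, with a truncated death domain that transmits no death signal. It had 63.9, 63.3 and 60.3 CPM in the knockdown libraries, and 31.4, 34.6 and 39.0 CPM in the control libraries. The groups were far apart, with the lowest knockdown library well above the highest control. TNFRSF10D rose by 78.6% (log2 fold change 0.84, SE 0.09, edgeR adjusted p = 5.12e-05), and the rise passed in all 17 alternatives, with log2 fold changes from 0.68 to 0.92.

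The receptors that transmit the TRAIL signal, TNFRSF10A (DR4) and TNFRSF10B (DR5), had log2 fold changes of 0.08 and 0.17 and did not pass. TNFRSF10B was nonetheless above the controls in every knockdown library, at 316, 342 and 363 CPM, against 303, 299 and 303 CPM in the control libraries (edgeR adjusted p = 0.115), though by FPKM its groups overlapped, at 107, 132 and 130 in the knockdown libraries against 136, 109 and 124 in the control libraries. On the length-scaled level, the ratio of TNFRSF10D to TNFRSF10A (log2 of FPKM) was 1.03 ± 0.12 in knockdown cells and 0.33 ± 0.23 in control cells, and that of TNFRSF10D to TNFRSF10B was −2.73 ± 0.17 in knockdown cells and −3.46 ± 0.30 in control cells (SD, n = 3 each). The ratios of the knockdown libraries lay above those of the control libraries for both pairs. The exact two-sided permutation p was 0.1 for each of 4 ratios compared and after adjustment over the 4, which is the smallest that 3 libraries against 3 allow, and the pairs were chosen after their values had been seen.

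FAS, the receptor for FAS ligand, had 54.6, 48.9 and 64.7 CPM in the knockdown libraries, and 51.5, 58.7 and 53.2 CPM in the control libraries. Its groups overlapped fully, with the highest and the lowest value both in knockdown libraries (log2 fold change 0.04, SE 0.10, edgeR adjusted p = 0.780). FAS overlaps ACTA2 on the opposite strand. FADD, the adaptor that ties the receptors to CASP8, had 35.2, 34.1 and 35.4 CPM in the knockdown libraries, and 45.4, 43.6 and 42.7 CPM in the control libraries. All knockdown libraries were low, and FADD fell by 0.33 on the log2 scale (SE 0.07, edgeR adjusted p = 0.00363), a call that held in all 17 alternatives. FADD shares 54.9% of its exon bases with AP000879.1 on the opposite strand. That gene had a mean of 394 counts per library, against 4046 for FADD.

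CFLAR encodes cFLIP, the relative of CASP8 that lacks protease activity and is made in long and short splice forms. Its count did not pass, at 133, 133 and 156 CPM in the knockdown libraries and 142, 149 and 136 CPM in the control libraries (log2 fold change −0.01, SE 0.08, edgeR adjusted p = 0.913). Its FPKM did differ, at 63.9, 58.9 and 73.7 in the knockdown libraries, against 81.2, 87.8 and 82.5 in the control libraries. On log2(FPKM + 1), limma gave −0.36 (adjusted p = 0.0119, and 0.0551 without a filter on low values), where the median of all genes was −0.10. Between fits on counts CFLAR changed sign, with log2 fold changes up to 0.03. If both tables come from the same quantification, which no source used here states, the count divided by FPKM and by the library total gives the length that was assigned to the transcripts of a gene; the lengths below rest on that assumption.

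This implied length of CFLAR was 1961, 2159 and 2085 bases in the knockdown libraries, and 1753, 1761 and 1762 bases in the control libraries. The control libraries lay close together and the value was larger in every knockdown library, by a mean ratio of 1.18 (exact two-sided permutation p = 0.1, the smallest possible for 3 libraries against 3). The difference of 0.23 on the log2 scale was larger in size than that of 98.6% of the 10982 genes with at least 2 FPKM in each library, whose median absolute difference was 0.02. It stayed between 0.20 and 0.27 when any 1 library was left out. Of the 41 members that reached 2 FPKM, 10 had implied lengths that did not overlap between the groups, against 17% of all such genes. FAS was among them, at 2511, 2659 and 2447 bases in the knockdown libraries and 2385, 2356 and 2311 bases in the control libraries. MDM2, which has alternative promoters, had overlapping values of 3164, 3187 and 3621 bases in knockdown libraries and 2857, 2765 and 3335 bases in control libraries. Expression of single transcripts was not analysed here, and this measure was added after the data had been seen.

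**Figure D3:**
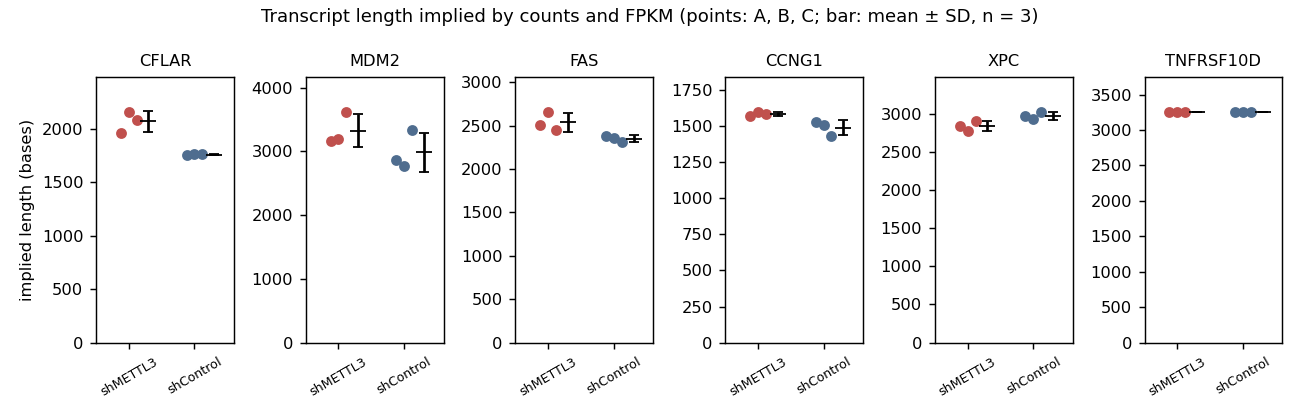
Transcript length in bases implied by the deposited counts and FPKM (vertical axes from 0, one per gene) in the knockdown libraries and, to their right, the control libraries; points are libraries A, B and C, with mean ± SD beside them. CFLAR has a larger value in every knockdown library (2068 ± 100.1 against 1759 ± 5.22 bases), whereas TNFRSF10D lies at 3250 to 3258 bases in all 6.

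Of the 3 anti-apoptotic BCL2 proteins among the members, BCL2L1 rose and BCL2 and BCL2L2 did not pass. Outside the members, the anti-apoptotic relative MCL1 fell (log2 fold change −0.31, edgeR adjusted p = 0.00768), and BCL2A1 did not pass (0.22). BCL2L1 encodes BCL-XL, which holds BAX and BH3-only proteins in check at the mitochondrial membrane. It had 451, 447 and 466 CPM in the knockdown libraries, and 375, 358 and 326 CPM in the control libraries. The groups did not overlap, and BCL2L1 rose by 28.7% (log2 fold change 0.36, SE 0.08, edgeR adjusted p = 0.00492) with the call kept in all 17 alternatives. BCL2, the founder of the family, was weakly expressed, at 2.55, 2.95 and 3.16 CPM in the knockdown libraries and 3.17, 3.27 and 3.41 CPM in the control libraries. Its groups only just failed to overlap (log2 fold change −0.18, SE 0.13, edgeR adjusted p = 0.297). BCL2L2 (BCL-w) had a log2 fold change of −0.00.

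The pore-forming proteins BAX and BAK1 did not pass. BAX had 126, 114 and 127 CPM in the knockdown libraries, and 123, 118 and 119 CPM in the control libraries, so that its groups overlapped (log2 fold change 0.03, SE 0.08, edgeR adjusted p = 0.775). BAK1 had a log2 fold change of −0.09. On the length-scaled level, the order of BCL2L1 and BAX differed between the groups. BCL2L1 had 210, 205 and 226 FPKM and BAX 196, 173 and 197 FPKM in the knockdown libraries, while BCL2L1 had 182, 176 and 171 FPKM and BAX 208, 207 and 202 FPKM in the control libraries. BCL2L1 was thus the higher of the pair in each knockdown library and the lower in each control library. The log2 ratio of BCL2L1 to BAX was 0.18 ± 0.07 in knockdown cells and −0.22 ± 0.02 in control cells (SD, n = 3 each, exact two-sided permutation p = 0.1, the smallest possible).

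BH3-only proteins and their relatives sense stress and start the mitochondrial pathway; of 9, 8 were tested, and only BIK passed. BIK, which acts at the endoplasmic reticulum, had 2.52, 2.10 and 3.27 CPM in the knockdown libraries, and 3.72, 3.56 and 4.11 CPM in the control libraries. The groups did not overlap, and BIK fell by 0.53 on the log2 scale (SE 0.16, edgeR adjusted p = 0.0215). The BIK call was lost without knockdown library A (edgeR adjusted p = 0.0709), knockdown library B (0.0965) or control library C (0.0585). BBC3 (PUMA), the p53 target that binds all anti-apoptotic BCL2 proteins, had 69.5, 62.0 and 69.9 CPM in the knockdown libraries, and 60.4, 60.3 and 58.5 CPM in the control libraries. Every knockdown library of BBC3 was above every control, but the difference did not pass (log2 fold change 0.17, SE 0.08, edgeR adjusted p = 0.102). PMAIP1 (NOXA), the other BH3-only protein best known as a p53 target, had a log2 fold change of −0.12. The remaining 5, which are BCL2L11 (BIM), BID, BAD, BMF and BNIP1, lay between −0.31 for BMF and 0.12 for BCL2L11.

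**Figure D4:**
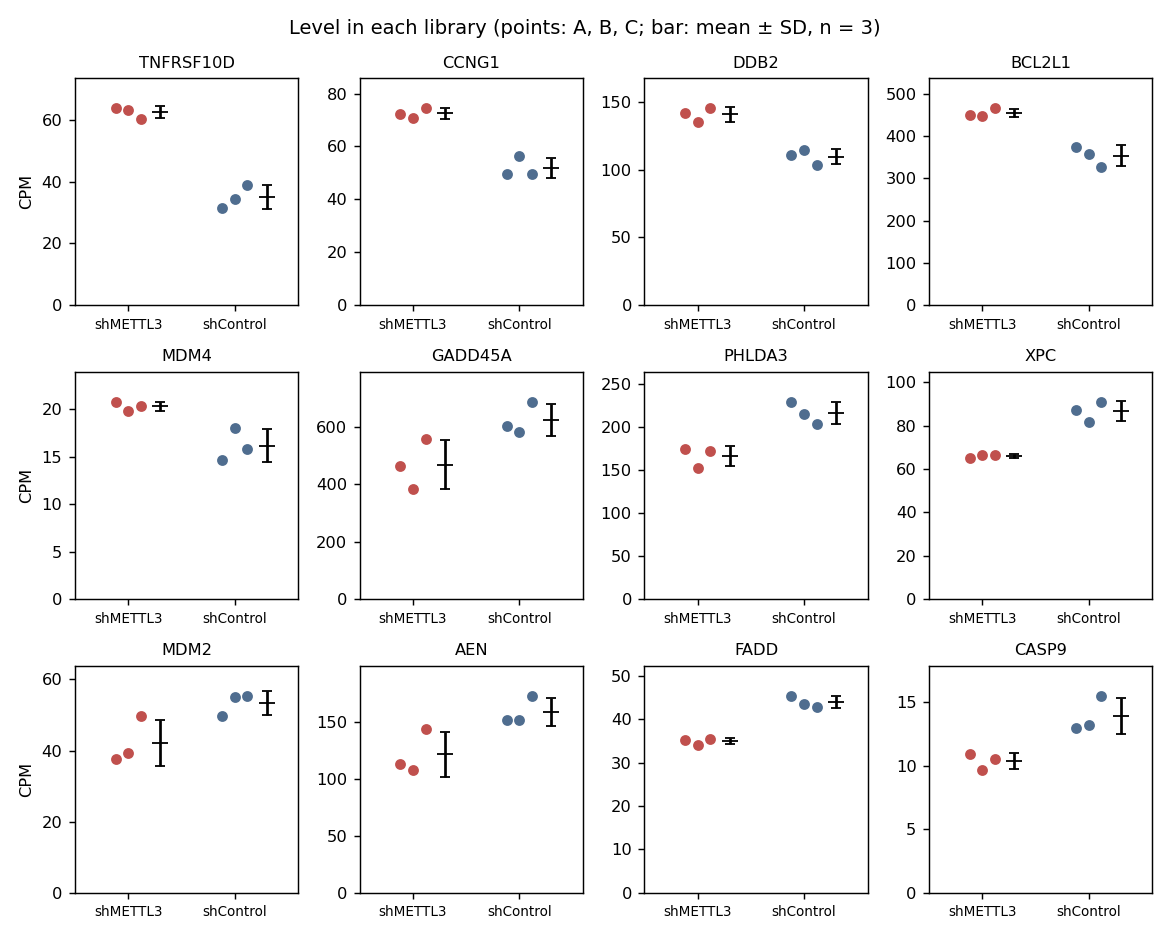
CPM (vertical axes from 0) of 12 of the 17 called members in the 3 METTL3 knockdown libraries (left) and the 3 control libraries (right), with mean ± SD (n = 3). TNFRSF10D, CCNG1, DDB2, BCL2L1 and MDM4 were higher in knockdown cells and the other 7 lower, and of these 12 only MDM2 has groups that overlap, with its knockdown library C at 49.7 CPM and its control library A at 49.6 CPM.

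Among the 8 caspases, CASP14 rose, CASP9 fell and 6 did not pass. CASP9, the initiator of the mitochondrial pathway, had 11.0, 9.68 and 10.5 CPM in the knockdown libraries, and 12.99, 13.2 and 15.5 CPM in the control libraries. The groups did not overlap, and CASP9 fell by 0.42 on the log2 scale (SE 0.10, edgeR adjusted p = 0.00492); 1 of the 17 alternatives, limma on log2(FPKM + 1) without a filter, did not pass it (adjusted p = 0.0503). CASP8, the initiator of the receptor pathway, had 50.0, 49.4 and 54.6 CPM in the knockdown libraries, and 47.7, 49.1 and 47.3 CPM in the control libraries. Its knockdown libraries were all slightly higher without passing (log2 fold change 0.09, SE 0.07, edgeR adjusted p = 0.348). CASP2, CASP4, CASP6 and CASP10 had log2 fold changes between −0.05 and 0.04. CASP1, the inflammasome caspase, was below 1 CPM in each library, with a log2 fold change of −0.42 that did not pass (edgeR adjusted p = 0.136).

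CASP14, which in skin takes part in the cornification of keratinocytes and in the breakdown of filaggrin, received 137, 153 and 102 counts in the knockdown libraries, and 0, 0 and 1 count in the control libraries. Its transcript was at a low level in knockdown cells, at 1.45, 1.57 and 1.02 CPM (0.48, 0.53 and 0.38 FPKM), and listed at 0 FPKM in the control libraries. With 392 counts against 1, its ratio, scaled as for CPM to the normalised library totals, was 431, with a 95% exact interval from 76.9 to 17100 that covers counting error only (edgeR adjusted p = 1.38e-06). It was called in the 15 alternatives that tested it. CASP14 passed the filter on low counts only through the knockdown libraries, where it is high, so these calls are no independent support. No other gene of the 18740 had at least 102 counts in each knockdown library and at most 1 count over all control libraries. In the reverse direction 0 genes did. Both limits are the values of CASP14 itself, so this search describes its pattern and does not test it.

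CASP14 lies on chromosome 19 of GRCh38, plus strand, from 15049384 to 15058293. Of the 8 annotated genes within 100 kb in GENCODE 29, SLC1A6, CCDC105, OR1I1, AC003956.1 and RNU6-782P had 0 counts in all 6 libraries, and OR10B1P had 0 in the knockdown libraries against 2, 0 and 3 in the control libraries. The 2 expressed neighbours rose by far less. SYDE1 had 8881, 9291 and 9590 counts in the knockdown libraries and 8335, 8048 and 7131 counts in the control libraries (log2 fold change 0.37, edgeR adjusted p = 0.00491). ILVBL, next to it, had a log2 fold change of 0.36. The promoter of CASP14 at chr19:15049230-15049529 (plus strand, RefSeq, GRCh38.p14) is shown because the gene was read almost only in knockdown libraries; it held no p53 half-site, so it has no capitals.
CASP14: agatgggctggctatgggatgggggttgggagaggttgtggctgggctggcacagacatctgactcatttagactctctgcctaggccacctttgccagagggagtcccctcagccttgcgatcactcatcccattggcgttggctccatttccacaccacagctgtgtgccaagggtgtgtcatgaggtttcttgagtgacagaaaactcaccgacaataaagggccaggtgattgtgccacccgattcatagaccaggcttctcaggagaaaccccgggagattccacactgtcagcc

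**Figure D5:**
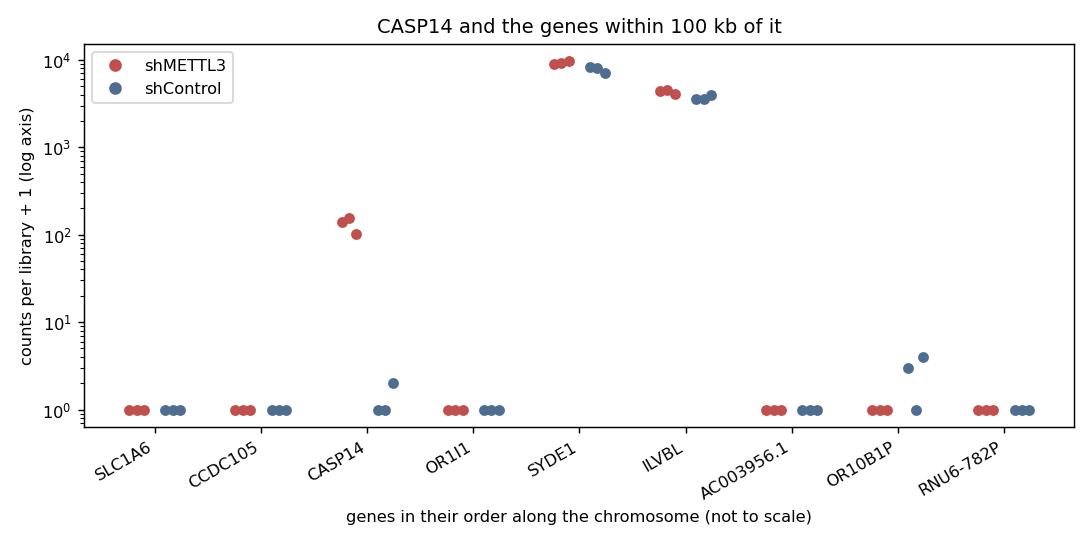
Counts per library plus 1 (vertical axis, log scale) of CASP14 and the genes within 100 kb of it, knockdown libraries left of control libraries. CASP14 has 102 to 153 counts in the knockdown libraries and at most 1 in a control library, while its nearest neighbours on both sides have 0.

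Of the apoptosome and the inhibitors of apoptosis, none of 4 genes passed. APAF1, the scaffold of the apoptosome, had a log2 fold change of 0.11, DIABLO (SMAC), which displaces inhibitors from caspases, −0.17, XIAP, a direct caspase inhibitor, 0.03, and BIRC2 (cIAP1), a ubiquitin ligase of receptor complexes, 0.17.

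By FPKM, the levels of the members differed widely. In knockdown cells the highest were CDKN1A (560 ± 56.3 FPKM), GADD45A (423 ± 85.8), BCL2L1 (214 ± 10.8) and BAX (189 ± 13.5), and in control cells CDKN1A (660 ± 51.2), GADD45A (611 ± 69.4), BAX (206 ± 3.38) and BCL2L1 (176 ± 5.13; SD, n = 3 each). CDKN1A was above GADD45A in each of the 6 libraries, although the ranges of mean ± SD overlapped in both groups. Those ranges leave out that both genes were read in the same libraries, and the difference within libraries was not tested. BCL2, CASP1, CASP14 and HRK were the lowest in both groups.

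METTL3 writes m6A mostly within a motif whose commonest form in mammals is GGACT in DNA letters. On the chosen GENCODE transcript of each gene, sense strand, the median density of GGACT was 1.03 per kilobase for the 8 members that rose, 0.543 for the 9 that fell and 1.14 for the 32 that did not pass. Over all tested coding genes the densities were 0.985 for 2321 that rose, 0.934 for 2843 that fell and 0.937 for 8646 that did not pass. A motif is not a methylated site, and m6A was not measured in these libraries.

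Other genes of the same pathways, taken from lists that hold no member, gave 12 rises and 10 falls among 54 tested of 57 (40.7%, against 33.5% of all genes). Of the 13 genes of the list upstream of these targets, 4 rose and 2 fell. Of the 4 DNA damage kinases on it, CHEK1 (0.48) and CHEK2 (0.44) rose, ATR fell by 0.56 on the log2 scale, and ATM had a log2 fold change of 0.07 that did not pass. RPL11 (0.64) and RPL5 (0.46), ribosomal proteins that bind MDM2, rose. Of 19 other p53 targets, 4 rose and 5 fell. Those with the smallest p were CCNG2 (cyclin G2, 0.81), E2F7, a repressor of cell cycle genes (0.79), SFN (14-3-3 sigma, 1.17) and RPS27L, a ribosomal protein paralogue (−0.66). Of 23 tested genes of the other death machinery, 4 rose and 4 fell. CYCS, which encodes cytochrome c, fell by 0.82 on the log2 scale, and DFFB, the nuclease that cuts DNA in apoptosis, fell by 0.61. BIRC5 (survivin), which also acts in mitosis, rose by 0.80 and GSDME, a pore-forming protein, rose by 0.59. PPM1D, the phosphatase that switches off p53, stood in both the upstream and the target list and fell by 0.34.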

How the data were processed

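The authors deposited whole-number counts and FPKM values for 61860 gene rows in 6 libraries. Per the submitters' processing notes, STAR 2.7.10b, Salmon and GRCh38 were used; no source used here gives their roles, the annotation release or a strand setting, and counts may be rounded estimates. The deposited counts were tested in edgeR 4.0.16 (R 4.3.3): filterByExpr left 18740 genes, then came TMM scaling, the quasi-likelihood test and Benjamini-Hochberg adjustment, with a threshold of 0.05. Procedures were tested on simulated data. The deposited FPKM served for levels between genes, implied lengths (FPKM of at least 2, assuming that both tables come from 1 quantification) and limma 3.58.1 alternatives (pseudocounts 1 and 0.1). DESeq2 1.42.0 was a further alternative.

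With 100534896 to 103624456 counts per library, the spread between libraries limits precision, except for weakly expressed genes. Intervals cover counting error only. No pair of libraries agreed within sampling noise. Positions, transcripts and overlaps came from GENCODE 29 (GRCh38), with 58308 of 61860 identifiers matched; 25 members share exon bases with another gene, 9 of them with a partner of at least 10% of their own count. Promoters came from RefSeq (GRCh38.p14).

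Members and lists were chosen with earlier results of these data known. Library values were printed for members past 0.05 with an absolute log2 fold change of at least 0.4 and for CDKN1A, MDM2, BAX, BBC3, FAS, BCL2, BCL2L1, CASP8 and CASP9; of each other list the up to 4 called genes with the smallest p were named. CHEK2, ATM, PPM1D, MCL1, BCL2A1 and the expressed neighbours of CASP14 were named besides, after their values had been seen.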

Additional observations from a re-analysis of the deposited data

How the results depend on the processing

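Of the 17 called members, 6 passed in every alternative that tested them (PHLDA3, XPC, TNFRSF10D, FADD, BCL2L1 and CASP14), 11 lost the call in at least 1, and 0 changed sign. Of the 32 others, 7 passed in at least 1 alternative and 15 changed sign. The 3 limma fits on FPKM called 3 members higher, against 8, and 7, 7 and 4 pathway genes higher, against 12. Of all genes they called 1588, 1568 and 1027 higher, against 3099. The fit on log2(FPKM + 1) without a filter called 5 members lower, against 9, and 2244 of all genes, against 3171. Pathway genes called lower numbered 18 with scaling by library totals, 18 with log2(FPKM + 1) and 17 with log2(FPKM + 0.1), against 10. Of all genes, 4727, 3730 and 3710 were called lower there. These scalings moved the median of all genes to −0.11 (library totals), −0.10 (FPKM + 1) and −0.12 (FPKM + 0.1); the cause of the moved counts was not tested. Leaving out 1 library gave 6 to 7 members higher and 4 to 11 lower, with 11 without knockdown library C, and 8 to 12 pathway genes higher and 6 to 15 lower (6 without knockdown library B, 15 without knockdown library C). Of all genes, these fits called 2053 (without knockdown library B) to 3265 (without knockdown library C) higher, and 1959 to 3324 lower with the same libraries left out. Where a knockdown or control group was left with 2 libraries, fewer samples entered the fit. With the column letter fitted as a replicate block, the test called 8 members higher and 10 lower and 12 pathway genes higher and 15 lower; deviations of libraries with the same letter correlated at 0.04 (A), −0.08 (B) and 0.28 (C), and no label ties the letters, so they share only a letter. DESeq2 called 8 members higher and 9 lower. The implied length of CFLAR, added after the data had been seen, kept its direction without any 1 library. The calls of CCNG1 and CASP9 were lost only with log2(FPKM + 1) without a filter; those of GADD45A, AEN, TP53I3 and BIK were lost there too. Low counts limit HRK, CASP1, CASP14, TP53I3, BCL2 and BIK, among others.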

Other observations

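On the assumption that counts and FPKM come from 1 quantification, other members besides CFLAR and FAS had implied lengths that did not overlap between the groups. CCNG1, the cyclin G1 gene, had implied lengths of 1570, 1600 and 1584 bases in the knockdown libraries and 1530, 1510 and 1431 bases in the control libraries, next to its rise in count. XPC, which fell in count, had smaller values in knockdown cells, with 2838, 2775 and 2899 bases in the knockdown libraries and 2968, 2924 and 3024 bases in the control libraries. TNFRSF10A, with a log2 fold change in counts of 0.08, did so too, with 2331, 2242 and 2337 bases in the knockdown libraries, against 2407, 2412 and 2412 bases in the control libraries. For each of these 3 genes the groups did not overlap (exact two-sided permutation p = 0.1, the smallest possible), as for 17% of the 10982 genes compared. The log2 differences of CCNG1 (0.09), XPC (−0.07) and TNFRSF10A (−0.07) were larger in size than those of 87.2%, 80.5% and 80.1% of these genes. BID, DIABLO, PMAIP1, BBC3 and CDKN1A did not overlap either, at mean ratios from only 0.96 (BID) to 1.03 (DIABLO). On log2 of FPKM, the ratio of MDM4 to MDM2 was −2.22 ± 0.13 in knockdown cells and −3.16 ± 0.02 in control cells (SD, n = 3 each). On log2 of CPM, which carries no length, it was −1.05 ± 0.22 in knockdown cells and −1.73 ± 0.11 in control cells. MDM4 was called higher and MDM2 lower, so the shift of their ratio restates those calls. The pair was chosen after its values had been seen.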
